A study of Mus musculus with 6 samples.

Results

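Cytochrome P450 genes were examined in epithelial cells isolated from the mouse ileum, with and without deletion of Ogt, the enzyme that attaches O-linked N-acetylglucosamine to nuclear and cytoplasmic proteins. Members were all genes of the deposited table whose Ensembl identifier maps to a mouse symbol made of Cyp, a family number, a subfamily letter and a member number. Pseudogenes and Cyp51 were left out, and Por, the reductase that serves most of the family, was added. This gave 98 P450 genes in 38 subfamilies and Por, 99 of the 22274 genes listed. Bulk RNA sequencing had been performed on 3 Ogt knockout libraries and 3 control libraries. The knockout mice carried floxed Ogt and Olfm4-CreER, a tamoxifen-dependent Cre driven from a gene active in crypt stem cells, so that deletion spreads to the epithelium those cells make. For the controls, the genotype label gives only floxed Ogt (LoxP), while their titles read Olfm4Ctrl. Whether they carried the driver is therefore not stated. Per the labels' protocols, mice were given tamoxifen at 2 months of age on 3 days in a row and tissue was taken on day 10. Whether libraries of a group came from separate animals is not stated in the labels, and p-values therefore measure the spread between these libraries, which may be technical.

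P450 enzymes are haem-containing monooxygenases that insert an oxygen atom into lipophilic substrates. Those in the endoplasmic reticulum receive electrons from NADPH through Por, with cytochrome b5 as a further donor, and those in mitochondria receive them through ferredoxin reductase and ferredoxin. The Cyp2 and Cyp3a enzymes are known for the oxidation of drugs, steroids and fatty acids, the Cyp4 enzymes for hydroxylating the end of fatty acid chains, and further families for single steps in sterol, steroid, retinoid and vitamin D metabolism. In the small intestine, P450 activity lies mainly in villus enterocytes, where it meets ingested compounds before they reach the liver. Many of the genes lie in clusters of related copies, some of them near-identical.

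Libraries held between 14389429 and 18076479 estimated counts. Ogt itself measured 48.5, 43.0 and 36.0 CPM (counts scaled to a common library total) in the knockout libraries, against 140.1, 127 and 128 CPM in the controls. Its log2 fold change was -1.63 ± 0.13 (SE; edgeR quasi-likelihood test, adjusted p = 0.00121). Adjusted p-values are Benjamini-Hochberg values over all 14005 genes tested, from this test unless another is named, with a threshold of 0.05. The tissue label was met by the epithelial marker list. Its sum was 20121 to 24099 CPM in knockout libraries and 24275 to 27706 CPM in controls. The 8 pancreas acinar genes summed to 3.07 to 4.15 CPM in knockout libraries and 3.21 to 5.72 CPM in controls. Of these 8, Cela3b and Cpa1 were at 0 in every library. The enterocyte list (10 genes) summed to 19136 to 22331 CPM in knockout libraries and 21486 to 34581 CPM in controls, the lowest control being control 1, and 4 of the 10 fell, with a median log2 fold change of -0.69. Smooth muscle genes summed to 736 to 1079 CPM in knockout libraries and 798 to 1965 CPM in controls, again lowest in control 1. All 9 tuft cell markers tested fell, to a sum of 19.5 to 27.7 CPM in knockout libraries, against 114 to 123 CPM in controls. Among all tested genes 9.37% fell, with a median log2 fold change of -0.05. In other cell type lists, 2 of 10 tested epithelial, 2 of 9 goblet and 1 of 8 Paneth genes fell. In the same way, 2 of 10 enteroendocrine, 2 of 10 stromal or endothelial and 1 of 4 hepatocyte genes rose. Among all tested genes 9.33% rose. Control sums spread widely for goblet genes (6853 to 15983 CPM) and Paneth genes (187 to 1945 CPM). Fewer cells of a type and less RNA per cell cannot be told apart in such bulk samples, and the part of these marker shifts in the P450 values was not tested.

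Much of the family was silent or nearly so in this tissue. Of the 98 P450 genes, 33 had 0 counts in every library, 31 had counts but too few to test (19 of them at most 10 counts over all 6 libraries and none above 56), and 34 were tested. Of the members known to be abundant in mouse liver, Cyp7a1, Cyp2c29, Cyp2c37, Cyp2c50, Cyp2c54 and Cyp4a14 were among those at 0, while Cyp3a11, Cyp3a25, Cyp2d26 and Cyp2e1 were detected. Per length and library (FPKM), the expression was concentrated in a few genes. Cyp4f14, a fatty acid hydroxylase that acts on leukotriene B4 in mouse, averaged 616 FPKM over all libraries, and Cyp3a13, the Cyp3a enzyme typical of mouse intestine, averaged 320.3 FPKM. Cyp4v3 came next at 100.1 FPKM and Cyp4f16 at 78.2 FPKM, followed by Por at 53.0 FPKM. Cyp3a25, Cyp2d26, Cyp2s1, Cyp4f40, Cyp4b1, Cyp2c65, Cyp4f13 and Cyp2j6 lay between 46.4 and 25.6 FPKM. In all, 17 P450 genes averaged 10 FPKM or more.

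The summed FPKM of the family was 1501, 1965 and 1612 in the knockout libraries, against 931, 1587 and 1512 in the controls, with control 1 the lowest and the groups overlapping. Of the single-gene shares of this sum that were computed, those of Cyp3a13 and Cyp2b10 lay apart between the groups. Those of Cyp4f14 and Cyp4v3 overlapped. Cyp3a13 made up 26.1, 26.8 and 28.1% of the summed P450 FPKM in knockout libraries and 10.5, 15.8 and 13.4% in controls, so that every knockout library lay above every control. Cyp4f14 held 39.9, 40.1 and 40.3% in knockout libraries and 38.5, 42.4 and 41.7% in controls, where the groups overlapped. Cyp4v3 held 6.88, 7.85 and 7.65% in knockout libraries and 3.93, 7.34 and 4.4% in controls. Cyp2b10 took 2.54, 1.68 and 2.22% in knockout libraries and 0.0430, 0.186 and 0.0668% in controls. These shares depend on each other and on the transcript lengths the authors used, and were not tested.

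**Figure D1:**
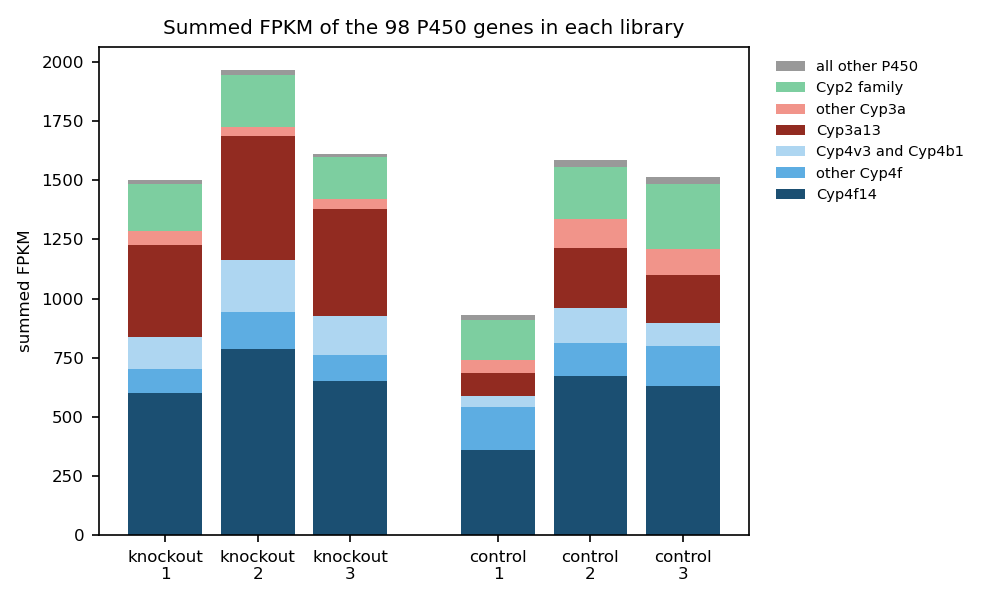
Summed FPKM of the P450 genes in each library, stacked by gene or gene group, with Ogt knockout libraries on the left and controls on the right. The Cyp3a13 segment is 26.1 to 28.1% of the bar in knockout libraries and 10.5 to 15.8% in controls, while Cyp4f14 is the largest segment in all 6 libraries.

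Of the 34 tested P450 genes, 3 rose (Cyp2b10, Cyp2s1 and Cyp2d22) and 6 fell (Cyp3a44, Cyp17a1, Cyp27a1, Cyp3a25, Cyp4f16 and Cyp2j6). With 1 library left out, between 1 and 4 rose and between 0 and 5 fell. The most calls came without control 1 (4 rose and 5 fell), and without knockout 3 none fell. Among all genes tested, 18.7% passed the threshold, 9.33% upward and 9.37% downward. The 9 P450 genes are 26.5% of those tested, and the median log2 fold change of the 34 was -0.29, beside -0.05 for all genes. Groups did not overlap in 15 of the 34 genes (44.1%), near the 39.8% of all genes. The filter on low counts let 4 of the 34 through although some library of only 1 group lay under 10 counts (Cyp17a1, Cyp2e1, Cyp3a44 and Cyp4f39), so the counts over tested members are given as a description. Cyp2b10 was the 1 P450 gene that passed in each of the 6 fits that left out a library.

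**Figure D2:**
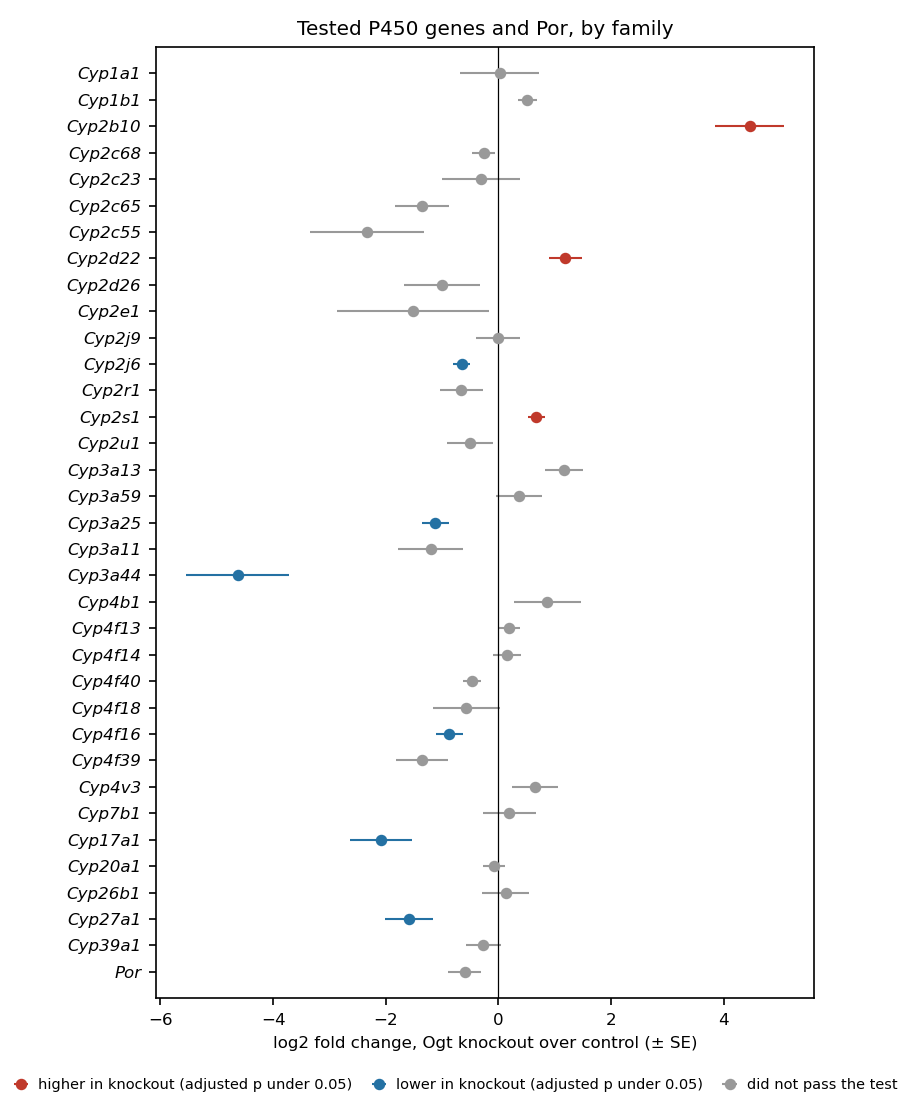
Log2 fold change (Ogt knockout over control) of the 34 tested P450 genes and Por, with bars of 1 SE from the edgeR fit. Cyp2b10 lies farthest right at 4.46 and Cyp3a44 farthest left at -4.63, and most of the other genes lie within 1 log2 unit of 0.

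Cyp2b10, the phenobarbital-inducible enzyme used in mouse as the readout of the receptor CAR, had the largest increase among the tested P450 genes. It measured 72.5, 60.1 and 63.2 CPM in the knockout libraries, against 0.791, 6.0 and 2.06 CPM in the controls. These correspond to 1049, 1082 and 1195 counts in knockout libraries and 13, 99 and 35 counts in controls, and every knockout library lay far above the highest control. The log2 fold change was 4.46 ± 0.61 (22.1-fold, adjusted p = 0.00746), and with 1 library left out it ranged between 4.07 and 5.53 with an adjusted p of at most 0.0312. No other Cyp2b gene was detected: Cyp2b9, Cyp2b13, Cyp2b19 and Cyp2b23 were at 0 in all 6 libraries. The nearest listed relative by transcript sequence, Cyp2b13, shares 88.1% of its bases with Cyp2b10. Hepatocyte markers were low, with a summed 11.8 to 26.4 CPM in knockout libraries and 9.71 to 29.1 CPM in controls, but Alb, the gene of serum albumin, rose to 7.33, 2.33 and 3.65 CPM in knockout libraries, against 1.58, 1.52 and 1.18 CPM in controls (log2 fold change 1.63 ± 0.44, adjusted p = 0.0379). The part of this shift in the Cyp2b10 value was not tested.

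Cyp2s1, an enzyme of epithelia outside the liver, is the neighbour of Cyp2b10 on chromosome 7, with 0 protein-coding genes between them in RefSeq, and it rose as well. It measured 132, 122 and 105 CPM in knockout libraries, against 89.8, 71.7 and 64.4 CPM in controls, and the groups did not overlap. The increase was far smaller than that of Cyp2b10, with a log2 fold change of 0.67 ± 0.15 (adjusted p = 0.0191). It missed the threshold without control 2 (adjusted p = 0.0510), control 3 (0.0591), knockout 1 (0.0591) or knockout 2 (0.0689). The start regions of this neighbouring pair are printed because they are the windows that could share short elements. They run from 250 bases before to 50 bases after the annotated start, from RefSeq on GRCm38.p6, at chr7:25897408-25897707 on the plus strand for Cyp2b10 and chr7:25816476-25816775 on the minus strand for Cyp2s1. Capitals mark matches on either strand to AGGTCA, a nuclear receptor half-site, to TGAACT, the half-site found in PXR elements, and to CAAAGTCCA, a site of the HNF4 type.
Cyp2b10: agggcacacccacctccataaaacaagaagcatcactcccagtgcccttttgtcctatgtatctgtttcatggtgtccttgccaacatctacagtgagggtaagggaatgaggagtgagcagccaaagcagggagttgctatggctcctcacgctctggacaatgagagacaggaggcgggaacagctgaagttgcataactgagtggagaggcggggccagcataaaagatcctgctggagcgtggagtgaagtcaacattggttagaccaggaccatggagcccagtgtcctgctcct
Cyp2s1: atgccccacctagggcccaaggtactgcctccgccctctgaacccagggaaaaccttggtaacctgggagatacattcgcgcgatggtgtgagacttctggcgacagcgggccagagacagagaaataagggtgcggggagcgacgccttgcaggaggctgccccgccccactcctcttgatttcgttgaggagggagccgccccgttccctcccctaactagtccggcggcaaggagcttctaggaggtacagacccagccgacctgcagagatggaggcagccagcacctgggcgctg
Neither window holds a match, so both stand in lower case. This says only that these letters are absent from the 300 bases shown, and other elements or more distant sequence were not searched.

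**Figure D3:**
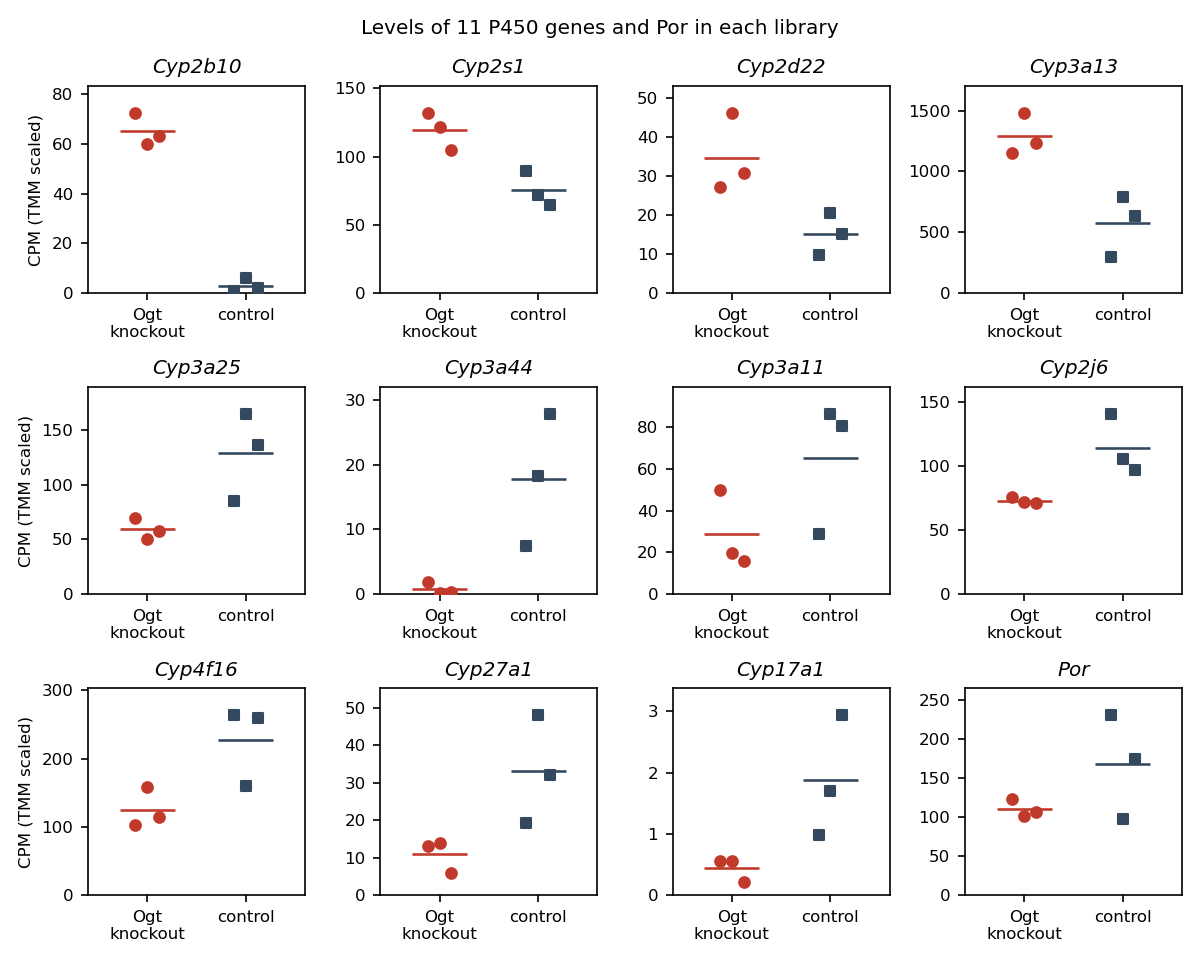
CPM of 11 P450 genes and Por in each library, with Ogt knockout on the left and control on the right of each panel, 1 point per library and a line at the group mean. Cyp2b10 lies between 60.1 and 72.5 CPM in knockout libraries and between 0.791 and 6.0 CPM in controls. The panel of Cyp3a13 shows control 1 below the other controls, and that of Por shows control 2 below all knockout libraries.

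Within the Cyp3a subfamily, which oxidises steroids, bile acids and many drugs, the most abundant gene was higher in every knockout library than in any control, while the 2 genes that passed the test fell. Cyp3a13 measured 1152, 1481 and 1231 CPM in knockout libraries, against 294, 787 and 635 CPM in controls. Every knockout library lay above every control, and control 1 was far below the other controls. The log2 fold change was 1.17 ± 0.34, but the adjusted p of 0.0520 missed the threshold. It passed without control 1 (adjusted p = 0.00651) or control 2 (0.0362), and reached up to 0.139 without another library. Across tools it lay on both sides: 0.000618 with DESeq2, 0.0463 with DESeq2 size factors, 0.0298 with library size alone and 0.0244 to 0.0292 in limma fits of FPKM, against 0.0507 with upper quartile factors, 0.0558 with limma voom and 0.0692 without a count filter.

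Cyp3a25 fell to 69.8, 50.8 and 57.9 CPM in knockout libraries, against 85.6, 165 and 137 CPM in controls. The groups did not overlap, and the log2 fold change was -1.12 ± 0.24 (adjusted p = 0.0211). It missed the threshold without control 3 (0.0703), knockout 2 (0.0786) or knockout 3 (0.0805). Cyp3a44 had 27, 2 and 6 counts in the knockout libraries, against 123, 300 and 473 counts in the controls. This was the largest fitted decrease among the P450 genes, -4.63 ± 0.92 (adjusted p = 0.0205), on few counts in the knockout. Leaving out control 2 gave an adjusted p of 0.0564, and leaving out control 3, knockout 2 or knockout 3 gave 0.0521, 0.0578 and 0.0663. Cyp3a11, the main hepatic Cyp3a gene and a PXR target in mouse, measured 49.9, 19.8 and 16.0 CPM in knockout libraries and 28.9, 86.3 and 80.5 CPM in controls. Knockout 1 lay above control 1, and the difference did not pass (-1.20 ± 0.58, adjusted p = 0.206). Cyp3a59 was low throughout, between 0.706 and 1.46 CPM (0.37 ± 0.41, adjusted p = 0.558). Cyp3a41a, untested, had 0 counts in each knockout library and 7, 1 and 5 counts in the controls.

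Without Cyp3a13, the Cyp3a genes summed to 58.1, 36.5 and 39.8 FPKM in knockout libraries and 58.3, 122 and 111 FPKM in controls. With it, they summed to 450.1, 563 and 492 FPKM in knockout libraries and 156, 374 and 313 FPKM in controls. The ratio of Cyp3a13 to Cyp3a25 FPKM was 11.1, 19.7 and 14.4 in knockout libraries and 2.32, 3.21 and 3.12 in controls. That these groups do not overlap follows from the values of the genes, which lay apart in opposite directions, and is no further result. Position also separates Cyp3a13 from the others, and by sequence it has no close copy among them. In RefSeq gene order it lies on chromosome 5 with 121 protein-coding genes between it and the next Cyp3a gene, whereas the other 8 follow each other with 0 between. Its nearest relative by transcript, Cyp3a57, shares 73.3% of bases, and within the cluster Cyp3a11 and Cyp3a25 share little more, 73.4%. Close copies there are Cyp3a25 and Cyp3a59 at 97.0%, Cyp3a44 and Cyp3a41a at 95% and Cyp3a11 and Cyp3a41a at 94.5%. Reads may therefore be divided wrongly among the clustered copies, which touches the single values of Cyp3a25, Cyp3a44 and Cyp3a11 more than their sum. The estimated counts of Cyp3a25 and Cyp3a59 were not whole in every library (tolerance 0.001), as happens when reads are shared out. Those of Cyp3a11, Cyp3a44 and Cyp3a41a were whole. Non-whole counts also occurred in Cyp4v3 and Cyp20a1, each the only listed gene of its subfamily.

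The start regions of 4 Cyp3a genes are shown to set Cyp3a13 beside members of the cluster. All are on the minus strand of GRCm38.p6 in RefSeq, at chr5:137921570-137921869 (Cyp3a13), chr5:145879805-145880104 (Cyp3a11), chr5:146009569-146009868 (Cyp3a25) and chr5:145805825-145806124 (Cyp3a44). Capitals mark the same 3 letter strings on either strand.
Cyp3a13: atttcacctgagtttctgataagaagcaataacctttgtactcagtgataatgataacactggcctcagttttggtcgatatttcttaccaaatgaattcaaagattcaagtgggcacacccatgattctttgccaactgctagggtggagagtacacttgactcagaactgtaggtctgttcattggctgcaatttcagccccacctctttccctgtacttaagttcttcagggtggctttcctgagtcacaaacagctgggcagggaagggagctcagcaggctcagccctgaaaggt
Cyp3a11: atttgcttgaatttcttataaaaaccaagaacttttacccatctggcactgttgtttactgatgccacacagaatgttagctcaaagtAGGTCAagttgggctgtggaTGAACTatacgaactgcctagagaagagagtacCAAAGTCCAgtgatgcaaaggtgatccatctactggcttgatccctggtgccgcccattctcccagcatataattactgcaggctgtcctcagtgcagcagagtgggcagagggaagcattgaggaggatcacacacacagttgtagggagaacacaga
Cyp3a25: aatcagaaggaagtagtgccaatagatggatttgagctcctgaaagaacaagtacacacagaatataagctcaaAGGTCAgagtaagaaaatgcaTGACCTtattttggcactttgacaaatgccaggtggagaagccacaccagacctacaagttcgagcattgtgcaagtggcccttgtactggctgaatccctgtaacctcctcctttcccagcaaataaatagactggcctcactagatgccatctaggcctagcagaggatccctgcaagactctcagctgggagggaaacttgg
Cyp3a44: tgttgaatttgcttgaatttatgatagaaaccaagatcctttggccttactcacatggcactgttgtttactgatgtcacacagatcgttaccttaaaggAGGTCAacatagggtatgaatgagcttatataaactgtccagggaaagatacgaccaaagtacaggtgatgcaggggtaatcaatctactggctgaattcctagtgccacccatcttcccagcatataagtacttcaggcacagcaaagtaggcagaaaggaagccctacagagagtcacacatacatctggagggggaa
The Cyp3a11 window holds AGGTCA 162 bases, TGAACT 142 bases and CAAAGTCCA 109 bases before the start. Cyp3a25 holds AGGTCA 176 bases before it and, on the other strand, TGACCT 155 bases before it, and Cyp3a44 holds AGGTCA 150 bases before it. The Cyp3a13 window has none of the 3 strings. It is 63.2 to 65.2% identical to the windows of the cluster. Among themselves these reach 94.3 to 95.9% (Cyp3a16, Cyp3a41a and Cyp3a44) and 90.9 to 96.3% (Cyp3a25, Cyp3a57 and Cyp3a59). Between these groups identity is as low, at 62.5% (Cyp3a25 and Cyp3a41a) to 66.7% (Cyp3a16 and Cyp3a59). Cyp3a11 shares 79.2 to 82.2% with the first group and 64.3 to 66.8% with the second. Of 99 members, 76 had a RefSeq window. AGGTCA or its reverse complement was in 20 of these 76 (26.3%), beside 16.0% of all 27025 windows of that length. Of the 29 tested members with a window, 4 held it, all in the Cyp3a cluster. TGAACT was in 12 of the 76 (15.8%), beside 14%, and in 4 of the 29 tested. CAAAGTCCA was in 11 of the 76 (14.5%), beside 0.477%, and in 3 of the 29 tested. Of these 11, 10 belong to the Cyp2c and Cyp3a clusters of similar copies, the other being Cyp8b1. A match is a description of letters and not a site shown to be bound.

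Among the Cyp2c genes, which make epoxides and hydroxylated products of arachidonic acid as well as acting on drugs, 15 were listed, 7 were at 0 throughout and 4 were tested, of which none passed. Cyp2c65, an intestinal epoxygenase, measured 47.6, 27.2 and 17.7 CPM in knockout libraries, against 57.3, 53.4 and 124 CPM in controls. The groups did not overlap, yet the spread was wide and the edgeR test was not passed (-1.35 ± 0.48, adjusted p = 0.106), whereas DESeq2 gave an adjusted p of 0.00437. Cyp2c55, known from mouse colon, had 23.2, 7.11 and 3.54 CPM in knockout libraries and 26.4, 17.1 and 125 CPM in controls, with control 3 far above the rest (-2.33 ± 1.01, adjusted p = 0.164). Cyp2c68 was at -0.26 ± 0.20 (adjusted p = 0.401) and Cyp2c23, a renal epoxygenase, at -0.31 ± 0.69 (adjusted p = 0.787). The untested Cyp2c66 had 3, 0 and 0 counts in knockout libraries and 16, 1 and 9 counts in controls, and it is 96.2% identical to Cyp2c65 by transcript. Cyp2c68 is 98% identical to Cyp2c40, and the estimated counts of Cyp2c65 and Cyp2c68 were not whole in every library, so the split among these copies is uncertain.

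In the Cyp2d subfamily, 2 genes were tested and lay on opposite sides of 0. Cyp2d22, the mouse counterpart of the human drug-oxidising enzyme CYP2D6, rose to 27.2, 46.2 and 30.7 CPM in knockout libraries, against 9.86, 20.6 and 15.2 CPM in controls. Every knockout library was above every control, with a log2 fold change of 1.19 ± 0.30 (adjusted p = 0.0345). The adjusted p was 0.0953 if control 3 was left out, 0.0957 for knockout 2 and 0.0800 for knockout 3. The more abundant Cyp2d26 measured 22.2, 81.9 and 47.3 CPM in knockout libraries and 32.3, 138 and 133 CPM in controls. It varied widely within both groups, and the difference did not pass (-1.0 ± 0.67, adjusted p = 0.346).

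Cyp2j6, an intestinal member of the subfamily that oxidises arachidonic and linoleic acid, fell to 75.3, 71.6 and 70.9 CPM in knockout libraries, against 140.3, 105 and 96.3 CPM in controls. The knockout values lay close together and below every control, with a log2 fold change of -0.65 ± 0.15 (adjusted p = 0.0207). The call was lost without knockout 1 (0.0519), knockout 2 (0.0783) or knockout 3 (0.0829), and in every limma fit of FPKM. Among the further Cyp2 genes, Cyp2u1, a fatty acid hydroxylase, was at -0.50 ± 0.41 (adjusted p = 0.435), Cyp2r1, a vitamin D hydroxylase, at -0.66 ± 0.38 (adjusted p = 0.261) and Cyp2j9 at 0.00 ± 0.39. Cyp2e1, the ethanol-oxidising enzyme, had 19, 39 and 121 counts in knockout libraries and 185, 285 and 0 counts in controls. Its absence from control 3, where 3 counts would equal 0.177 CPM, sets it apart from the other controls, and no difference passed (-1.51 ± 1.35, adjusted p = 0.480).

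The Cyp4 genes, which hydroxylate fatty acids and eicosanoids, supplied the larger part of the family's expression in every library. Cyp4f16 fell to 102, 159 and 115 CPM in knockout libraries, against 264, 160.3 and 259 CPM in controls. The groups touched without overlapping, since knockout 2 and control 2 were almost equal, and the log2 fold change was -0.87 ± 0.24 (adjusted p = 0.0434). It missed the threshold without control 1 (0.123), control 3 (0.153), knockout 1 (0.115) or knockout 3 (0.141), with library size alone (0.0767) and in limma fits of FPKM (0.0726 to 0.0812). Cyp4f14 measured 1176, 1487 and 1183 CPM in knockout libraries and 740.1, 1421 and 1313 CPM in controls. The ranges overlapped and the log2 fold change was 0.15 ± 0.25 (adjusted p = 0.711). The ratio of Cyp4f14 to Cyp4f16 FPKM was 13.1, 10.5 and 11.6 in knockout libraries and 3.10, 9.90 and 5.77 in controls.

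Of the other Cyp4f genes, Cyp4f40 measured 73.1, 74.9 and 52.3 CPM in knockout libraries and 101, 95 and 78.8 CPM in controls. Its groups did not overlap, but the test was not passed (-0.46 ± 0.16, adjusted p = 0.0845). Cyp4f39, the mouse counterpart of the human enzyme for very long fatty acids of skin ceramides, was scarce at 0.264 to 0.484 CPM in knockout libraries and 0.670 to 1.27 CPM in controls (-1.36 ± 0.46, adjusted p = 0.0779). Cyp4f13 was at 0.19 ± 0.20 (adjusted p = 0.539), and Cyp4f18, the leukotriene hydroxylase of mouse neutrophils, at -0.57 ± 0.59 (adjusted p = 0.536). The 8 listed Cyp4a genes, targets of PPAR alpha in liver and kidney, were not expressed at a testable level, and 6 of them were at 0 throughout.

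Cyp4v3, the counterpart of the human fatty acid hydroxylase CYP4V2, measured 391, 559 and 432 CPM in knockout libraries and 142, 470.5 and 269.6 CPM in controls. Control 2 lay within the knockout range, and the log2 fold change of 0.65 ± 0.41 did not pass (adjusted p = 0.320). Cyp4b1, which hydroxylates fatty acids and activates some plant toxins, measured 55.6, 115 and 72.8 CPM in knockout libraries and 12.5, 64.1 and 57.3 CPM in controls (0.87 ± 0.60, adjusted p = 0.365). Both genes were lowest in control 1, the library in which Cyp3a13, Cyp2d26 and the enterocyte and smooth muscle marker sums were also the lowest of the controls.

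The Cyp1 genes, targets of the aryl hydrocarbon receptor, did not pass. Cyp1a1 varied within both groups, with 2.14, 10.8 and 2.75 CPM in knockout libraries and 4.26, 2.73 and 8.47 CPM in controls (0.02 ± 0.70, adjusted p = 0.984). Cyp1b1 measured 10.2, 11 and 12.3 CPM in knockout libraries and 8.28, 8.37 and 7.0 CPM in controls. Its groups did not overlap, and the log2 fold change of 0.51 ± 0.17 had an adjusted p of 0.0684, or 0.0392 when scaled by library size alone.

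Cyp27a1 and Cyp17a1 were the P450 genes of sterol and steroid metabolism that passed, and each was lower in the knockout. Cyp27a1, the mitochondrial sterol hydroxylase of the alternative route to bile acids, fell to 13.1, 13.9 and 5.92 CPM in knockout libraries, against 19.1, 48.0 and 32.0 CPM in controls. The groups did not overlap, and the log2 fold change was -1.59 ± 0.43 (adjusted p = 0.0465). The call sat at the threshold: it was lost without control 2 (0.105), control 3 (0.103), knockout 1 (0.102), knockout 2 (0.0884) or knockout 3 (0.0962). It was also lost with limma voom (0.0566), without a count filter (0.0765) and in a limma fit of FPKM. Cyp17a1, the steroid hydroxylase and lyase of gonads and adrenal, had 8, 10 and 4 counts in knockout libraries, against 16, 28 and 50 counts in controls. It fell by 2.09 ± 0.55 on the log2 scale (adjusted p = 0.0344) at this low level. Only 1 knockout library reached 10 counts, so Cyp17a1 passed the count filter through the controls, which favours a call in this direction. Leaving out control 2 or 3 gave an adjusted p of 0.0697 or 0.129, and leaving out knockout 1, 2 or 3 gave 0.0690, 0.0875 or 0.121.

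The other tested genes of these families had overlapping groups. The oxysterol hydroxylases Cyp39a1 and Cyp7b1 were at -0.27 ± 0.31 (adjusted p = 0.577) and 0.19 ± 0.47 (adjusted p = 0.807). Cyp26b1, which inactivates retinoic acid, measured 1.52, 1.61 and 1.85 CPM in knockout libraries and 0.731, 1.52 and 2.29 CPM in controls (0.13 ± 0.42, adjusted p = 0.849). The vitamin D genes were nearly silent: Cyp24a1, which inactivates the hormone, had 5, 1 and 1 counts in knockout libraries and 0 in each control, and Cyp27b1, which activates it, had 1 count in knockout 3 and 1 in control 2. Neither was tested. Cyp20a1, a member without a settled substrate, was steady at 6.01, 5.17 and 5.77 CPM in knockout libraries and 6.15, 6.31 and 5.41 CPM in controls (-0.08 ± 0.19).

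Por, the shared reductase, measured 123, 101 and 107 CPM in knockout libraries, against 231, 97.3 and 175 CPM in controls. Controls 1 and 3 lay above all knockout libraries and control 2 below them, so the groups overlapped. The log2 fold change was -0.60 ± 0.29 (adjusted p = 0.188), and it passed without control 2 (adjusted p = 0.0190).

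Of 11 further electron carriers and P450-binding proteins, 10 were tested, 3 rose and 0 fell, where 9.33% of all tested genes rose and 9.37% fell. The median log2 fold change was 0.20, beside -0.05 for all genes. Cyb5a, the microsomal cytochrome b5 and the most abundant of them per length (201 FPKM), rose to 204, 195 and 172 CPM in knockout libraries, against 137, 157 and 133 CPM in controls (0.42 ± 0.12, adjusted p = 0.0411). Fdx2, a mitochondrial ferredoxin used in iron-sulphur cluster assembly, rose to 14, 14.4 and 11.5 CPM in knockout libraries, against 8.71, 3.76 and 4.88 CPM in controls (1.20 ± 0.30, adjusted p = 0.0292). Fdxr, the ferredoxin reductase, rose to 8.50, 10.2 and 7.72 CPM in knockout libraries, against 5.78, 5.88 and 4.65 CPM in controls (0.70 ± 0.20, adjusted p = 0.0460). Groups of all 3 were apart, while Fdx1, the ferredoxin that serves steroid-synthesising P450 enzymes, was at -0.25 ± 0.13 (adjusted p = 0.215). None of the 3 calls was held in every fit that left out a library: Cyb5a lost it without control 3 or any 1 knockout library, and Fdx2 and Fdxr without control 2, control 3 or any 1 knockout library, with adjusted p up to 0.123, 0.105 and 0.156 in that order of genes.

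Of 14 genes of haem synthesis and breakdown, all tested, 2 rose and 1 fell, a share close to the 18.7% of all tested genes that passed, with a median of -0.04. Alas1, the rate-limiting enzyme of haem synthesis outside red cells and the most abundant gene of the list per length (73.3 FPKM), rose to 135, 130.3 and 121 CPM in knockout libraries, against 79.0, 75.2 and 73.8 CPM in controls. The groups were narrow and far apart (0.76 ± 0.09, adjusted p = 0.00288). Alad, the next enzyme of the route, rose to 38.4, 44.4 and 35.3 CPM in knockout libraries, against 19.8, 19.3 and 16.9 CPM in controls (1.07 ± 0.13, adjusted p = 0.00288). Blvrb, a biliverdin reductase of haem breakdown, fell to 6.36, 5.94 and 5.61 CPM in knockout libraries, against 11.9, 14.1 and 13.0 CPM in controls (-1.12 ± 0.16, adjusted p = 0.00437). All 3 passed with each library left out in turn, with adjusted p of at most 0.0191, 0.0184 and 0.0277 in that order. The remaining 11 did not pass.

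Of 20 regulators of P450 transcription, all tested, 1 rose and 4 fell, where 9.33% of all tested genes rose and 9.37% fell, with a median of -0.21. Nr1i2, the xenobiotic receptor PXR, rose to 119.5, 110.0 and 106 CPM in knockout libraries, against 74.6, 89.1 and 92.3 CPM in controls (0.39 ± 0.11, adjusted p = 0.0476). The groups did not overlap, but the call was lost without control 2, control 3 or any 1 knockout library (adjusted p up to 0.134). Nr1i3, the receptor CAR, was scarce at 2.56, 3.0 and 4.55 CPM in knockout libraries and 1.10, 3.21 and 1.53 CPM in controls, and it did not pass (0.79 ± 0.43, adjusted p = 0.237). Hnf4g, an enterocyte transcription factor, fell to 234, 228 and 288 CPM in knockout libraries, against 418, 417 and 471 CPM in controls (-0.80 ± 0.13, adjusted p = 0.00667), and it passed with each library left out (adjusted p up to 0.0378). The related Hnf4a, the most abundant of the list per length, measured 1158, 1018 and 914 CPM in knockout libraries and 1258, 1212 and 1248 CPM in controls (-0.27 ± 0.13, adjusted p = 0.198). Every knockout value of Hnf4a was below every control, although the test was not passed.

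The other 3 that fell were Rara, a retinoic acid receptor (-0.76 ± 0.18, adjusted p = 0.0231), Nr3c1, the glucocorticoid receptor (-0.41 ± 0.10, adjusted p = 0.0237), and Rxrb, a retinoid X receptor (-0.47 ± 0.13, adjusted p = 0.0450). Rara lost its call without control 2, control 3, knockout 2 or knockout 3 (adjusted p up to 0.0779), Nr3c1 without control 2, control 3 or any 1 knockout library (up to 0.0986), and Rxrb without any 1 of the 6 libraries (up to 0.123). Ahr was at -0.10 ± 0.14 (adjusted p = 0.672) and Ppara, the fatty acid receptor that drives Cyp4a genes in liver, at -0.53 ± 0.21 (adjusted p = 0.120).

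**Figure D4:**
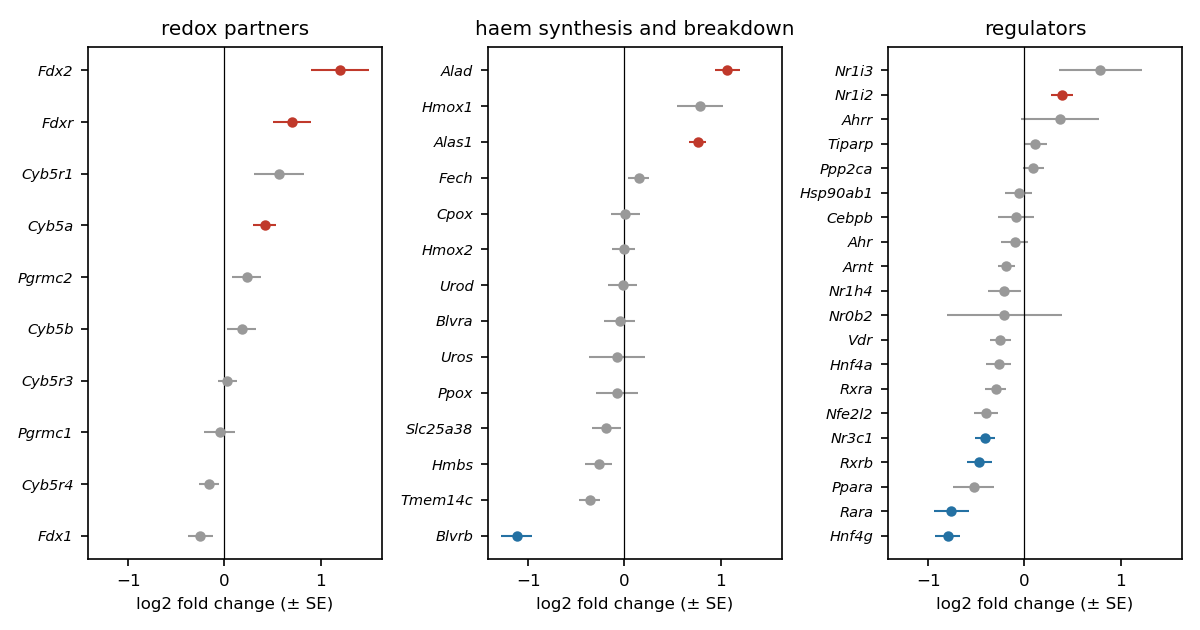
Log2 fold change (Ogt knockout over control, bars of 1 SE) of the tested genes in 3 lists: P450 redox partners, haem synthesis and breakdown, and P450 regulators. Red marks genes that rose, blue genes that fell and grey those that did not pass. Alas1 and Alad lie at 0.76 and 1.07 with short bars, and Blvrb and Hnf4g at -1.12 and -0.80.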

How the data were processed

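Ileal epithelial cells of mice were profiled by bulk RNA sequencing in 3 Ogt knockout and 3 control libraries. Per the labels' protocols, Trizol was used for RNA extraction and a NEBNext Ultra kit for the libraries. Per the submitters' processing notes, the build was GRCm39 (mm39). For the aligner and counter, the sources used here give no name. A single table was deposited by the authors, with estimated counts and FPKM values per gene and library, per the file headers. Non-whole values made up 7.68 to 8.09% of the estimated counts of a library (tolerance 0.001), and all were rounded, although whole counts had been assumed when the tests were chosen.

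Names were taken by Ensembl identifier from GENCODE M21 (22219 genes) or the deposited table (55). The deposited symbol differed for 38 members. RefSeq on GRCm38.p6 gave the printed sequences and the gene order. No coordinates on the build of the table are printed.

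Genes were filtered with filterByExpr (minimum count 10, minimum total 15) and tested with the quasi-likelihood F-test of edgeR 4.0.16 (TMM factors, robust, R 4.3.3), Benjamini-Hochberg adjusted over 14005 genes. The SE comes from the F statistic. With TMM factors, 3 counts equal 0.159 to 0.207 CPM. No pair of libraries agreed within sampling noise (mean chi-square per gene at least 19.5). The scripts were checked on simulated counts of 14005 genes. Of 100 genes changed 2-fold, 56 were recovered, and of 100 changed 4-fold, 83 were recovered. There were 16 false calls, and 0 calls when no gene was changed. The alternatives were DESeq2 1.42.0, limma 3.58.1 (voom, and log2(FPKM + 0.1) or log2(FPKM + 1)), other scalings and filters, a replicate block and each library left out.

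The members, lists and tests were chosen with earlier results of these data known. Named are Por, every member past the threshold, the tested members of Cyp2b, Cyp2c, Cyp3a and Cyp4, the 12 with the highest FPKM, tested members of the sterol, steroid and vitamin families, and set members of each list. Cyp1a1, Cyp1b1, Cyp2e1, Cyp2u1, Cyp2r1, Cyp2j9, Cyp20a1, Fdx1, Alb, Cela3b, Cpa1 and all untested genes were named after their values were seen.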

Additional observations from a re-analysis of the deposited data

How the results depend on the processing

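The tested P450 genes gave 3 higher and 6 lower calls with TMM factors in edgeR. Scaling by library size alone gave 5 higher, a scaling under which the median over all genes was 0.09 on the log2 scale, against -0.05 with TMM factors. The lower calls numbered 2 with log2(FPKM + 0.1) at a minimum of 1 FPKM, 3 with log2(FPKM + 1) and 2 with log2(FPKM + 0.1) at a minimum of 5 FPKM, in limma fits whose median over all genes was 0.10 to 0.14. With each library left out in turn, the higher calls ranged between 1 and 4, the lower calls between 0 and 5, and the genes called over the whole table between 1009 and 3304, against 2619 with all libraries. The 0 lower calls arose without knockout 3, where edgeR gave 7 at an unadjusted p under 0.05. Fewer samples were fitted there, and the cause of the other shifts was not tested. For single genes, 546 values kept their direction and side of the threshold under an alternative, 16 gained a call and 46 lost one. The sign changed in 25 values of 11 genes, 0 of them past the threshold with all libraries or under the alternative. With 1 library left out, the log2 fold change ranged between -1.07 and 0.62 for Cyp1a1, -1.31 and 0.31 for Cyp2c23, -0.19 and 0.40 for Cyp2j9, -0.74 and 0.00 for Cyp2u1 (just above 0 without control 2), -0.15 and 0.60 for Cyp26b1, -0.49 and 0.10 for Cyp39a1, -0.05 and 0.33 for Cyp4f13, -0.05 and 0.35 for Cyp4f14, and -0.06 and 0.77 for Cyp7b1. With limma voom Cyp1a1 was at -0.18 and Cyp2e1 at 0.68. With log2(FPKM + 0.1) at a minimum of 1 FPKM, Cyp1a1 was at -0.06, Cyp20a1 at 0.06 and Cyp39a1 at 0.02, and with log2(FPKM + 1) Cyp20a1 was at 0.05 and Cyp39a1 at 0.00. Scaling by library size alone put Cyp20a1 at 0.06. With the replicate number as a block, 4 P450 genes were higher and 3 lower, and 3402 genes were called. Of the 6 genes lower without the block, Cyp2j6 passed under it, while the adjusted p was 0.0523 for Cyp17a1, 0.0581 for Cyp27a1, 0.0682 for Cyp3a25, 0.0954 for Cyp3a44 and 0.118 for Cyp4f16. The other genes called lower under the block were Cyp2d26 (0.0285) and Cyp4f40 (0.0173), and Cyp3a13 was called higher (0.0190). Their log2 fold changes under the block were -0.93, -0.47 and 1.28, and Cyp1a1 was at -0.23. Same-numbered libraries correlated at 0.274, 0.253 and 0.084, so the third pair did not reach 0.1 and the numbers were not taken as pairs, although every library correlated best with its own number. At this depth, 31 P450 genes with counts were too low to test.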
